A study of Mus musculus with 2 samples.

Results

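The replication-dependent histone genes encode the bulk histones that cells make while DNA is copied, and their chromatin was examined by ATAC-seq in mouse embryonic stem cells (ESCs) with and without Uhrf1. In ATAC-seq, the Tn5 transposase inserts adapters into DNA that nucleosomes leave accessible, and a peak marks a site where such insertions pile up. The members were all protein_coding genes of the GENCODE vM1 annotation whose names start with Hist1h, Hist2h, Hist3h or Hist4h, which gave 67 of 22380 protein_coding genes. They comprised 6 H1, 19 H2A, 18 H2B, 11 H3 and 13 H4 genes, and 3 pseudogenes with such names were left out. The WT library came from undifferentiated E14 ESCs and the Uhrf1 KO library from undifferentiated E14 ESCs that lack Uhrf1, a protein that binds hemimethylated DNA and helps to keep DNA methylation through replication. Both lines were grown with serum and leukemia inhibitory factor on gelatin or on embryonic fibroblasts, and 50000 cells went into each library. Both lines were obtained from the same outside laboratory, and whether the Uhrf1 KO line is 1 clone is not given in the sources used here. With 1 library per genotype, no difference below has a replicate error, and none was tested. All values therefore compare those libraries, and the genotype cannot be told apart from the library.

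There were 71914 WT peaks and 61640 Uhrf1 KO peaks, all but 1 of them 101 bp wide, with no read counts, so the depth behind a peak is unknown. All 8 ESC marker genes, such as Pou5f1, Sox2 and Nanog, had a peak within 2 kb of a start in both lists. Of 7 fibroblast genes, 4 had a peak in WT and 3 in Uhrf1 KO, while Postn, Twist2 and Lum had none. Whether feeder cells added to the histone gene peaks was not tested. Uhrf1 itself had 2 WT and 3 KO peaks within 2 kb of its starts, so these peaks cannot check the genotype label.

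Histone genes of this class are copied into mRNA mainly in S phase and are packed in clusters. Their mRNAs mostly lack introns and end in a conserved stem-loop instead of a poly(A) tail. H2A, H2B, H3 and H4 build the nucleosome core, whereas H1 binds the linker DNA between nucleosomes. In the annotation, 62 of the 67 members had a transcript with 1 exon and the median gene length was 530 bp. A stem-loop of the known form lay 22 to 59 bp after the stop codon in 61 members, with a median of 31 bp, and in only 2 of the other protein_coding genes. Of those 2 genes, H2afx encodes the DNA damage variant H2A.X, and its stem-loop reads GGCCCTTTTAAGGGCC. The 61 members shared 6 versions, which differ in the stem, in 1 base of the loop or in both. The 3 commonest are shown because they identify these genes at the mRNA end, in capitals throughout and as DNA read from the NCBIM37 (mm9) genome.
39 members, among them Hist1h1c and Hist3h2a: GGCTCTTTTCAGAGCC
9 members, among them Hist1h3e: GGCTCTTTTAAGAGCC
8 members: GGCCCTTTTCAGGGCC
The form was not found at Hist1h2an, Hist1h3g, Hist1h4a, Hist1h2al, Hist2h2be and Hist2h2bb, which says only that these letters were absent from the window searched.

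On mm9 the members lay at 6 places. On chromosome 13 the Hist1 genes formed a first run of 23 members at chr13:21807632-22135545 and a second run of 31 members at chr13:23622919-24026720, and Hist1h2al stood alone at chr13:51298057-51298434. The 9 Hist2 members spanned chr3:96023839-96082924, the 2 Hist3 members chr11:58762413-58770176, and Hist4h4 lay at chr6:136752589-136752900.

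All 67 members had an ATAC-seq peak within 2 kb of a transcript start in WT and all 67 in Uhrf1 KO (95% exact Clopper-Pearson interval 94.6 to 100% for both). Across all protein_coding genes the share was 63.7% in WT and 58.8% in Uhrf1 KO. No member had a peak in WT only, against 6.66% of all protein_coding genes, and none in KO only, against 1.74%. Most members also had several peaks within 2 kb. A total of 52 members had 3 or more peaks in WT (77.6%; 29.9% of all genes), and 48 had 3 or more in Uhrf1 KO (71.6%; 20.9% of all genes). The median was 4 peaks per member in WT and 3 in Uhrf1 KO. Single members had 1 to 8 peaks in either library. Neighbouring members share peaks, so 89 of the 156 distinct WT peaks and 83 of the 146 distinct KO peaks were counted for several members. When each peak was given to the nearest member alone, the median was 2 peaks per member in both libraries. All protein_coding genes with a peak had a median of 2 in both libraries, with shared peaks counted for each gene.

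Another family of abundantly expressed genes and all GC-rich starts were set beside them. Of 84 cytosolic ribosomal protein genes, which also encode abundant products of every dividing cell, 74 had a peak in WT (88.1%, interval 79.2 to 94.1) and 76 in Uhrf1 KO (90.5%, 82.1 to 95.8). Only 12 of them (14.3%) had 3 or more peaks in WT. Other groups came nearer to the 77.6% of the members. The WT shares were 50.2% for starts with at least 60% GC, 54.5% for 11 replication-independent histone genes and 57.1% for 21 histone gene regulators. The last 2 groups are described below. In the KO list these shares were 34.6%, 54.5% and 38.1%, beside 71.6% for the members. Starts with at least 60% GC had a peak in 94.9% of 9217 genes in WT and 88.0% in Uhrf1 KO, and starts under 60% GC in 41.6% and 38.0% of 13096 genes. The histone members belonged mostly to the second class, with a median GC content of 53.6% over 500 bp around the start (range 37.2 to 67.4), and only 6 reached 60%. In the range of 50 to 55% GC, which held 27 members, 48.4% of 3233 other starts had a WT peak and 44.0% a KO peak. In the range of 45 to 50% GC, with 12 members, the shares of other starts were 28.7% and 27.2%. The median observed to expected CpG ratio of the members was 0.907, compared with 0.588 over all protein_coding starts and 0.283 at starts under 60% GC. Other groups lay closer to the members. Their medians were 0.833 at starts with at least 60% GC, 0.856 at ribosomal protein genes and 0.957 at replication-independent histone genes. The other starts in the GC ranges above were not matched to the members for this ratio.

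**Figure D1:**
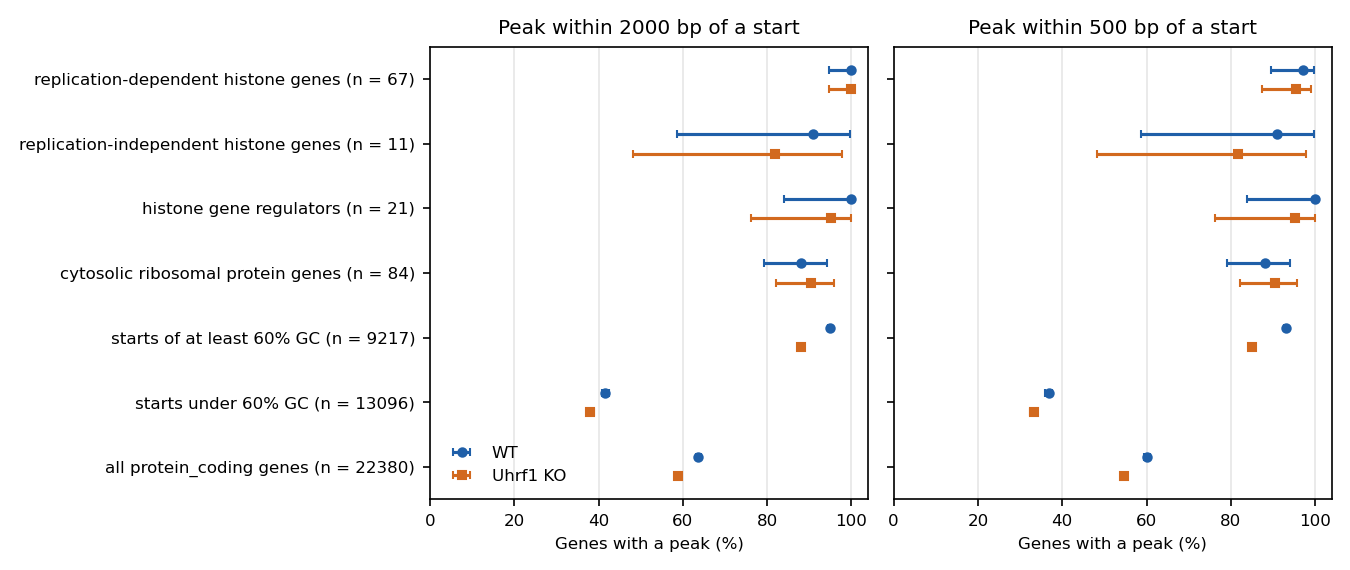
Share of genes with a peak (%) within 2000 bp (left) and 500 bp (right) of a start, for WT (circles) and Uhrf1 KO (squares); bars are 95% exact binomial intervals, which cover counting error only. The 67 replication-dependent histone genes sit at 100% within 2000 bp in both libraries and at 97.0% and 95.5% within 500 bp.

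The few gaps appeared when the window was narrowed. Within 500 bp, 65 members had a WT peak (97.0%) and 64 a KO peak (95.5%), beside 60.2% and 54.7% of all protein_coding genes. Hist1h2be and Hist1h3b lacked a WT peak in this window, and Hist1h2ab, Hist1h2bh and Hist1h3d lacked a KO peak. Hist1h2ab and Hist1h3b, an H2A and an H3 gene that adjoin each other, had 1 peak in each library within 2 kb, and it was closest to a different gene in each. In WT it lay at +86 bp from the Hist1h2ab start, which is -1093 bp from the Hist1h3b start. In Uhrf1 KO it lay at +26 bp from the Hist1h3b start, which is +1205 bp from the Hist1h2ab start. Neither peak had a counterpart within 100 bp in the other list. The number in the name of the WT peak was 1534, or 49.4% of the highest number of its chromosome, and that of the KO peak 474, or 17.2%. Around both starts, 80.0% (Hist1h2ab) and 76.6% (Hist1h3b) of 31 bp windows occur once in the genome.

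At Hist1h3d the WT peak lay at +362 bp and no KO peak was nearest to this gene. At Hist1h2bh the WT peak lay at +170 bp and the closest KO peak at -1047 bp. Hist1h2be is a special case, since its annotated transcript starts 35168 bp before its start codon. Near that start the WT list had a peak at -597 bp and the KO list had peaks at -592 and -132 bp. Near its start codon there was a WT peak at +249 bp and a KO peak at -132 bp.

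Among linker histones, the S phase genes Hist1h1a to Hist1h1e carried rows of several peaks. Hist1h1b had 7 peaks in each library, the most of this type over both libraries together, placed from -56 to +1020 bp in WT and from -43 to +1118 bp in Uhrf1 KO. Hist1h1c had 6 WT and 7 KO peaks within 2 kb, Hist1h1d had 3 and 6, Hist1h1e had 5 and 7, and Hist1h1a had 4 and 4. In the plot of peak positions the rows of Hist1h1b, Hist1h1c and Hist1h1d were long, ending at +1020, +952 and +629 bp in WT. In Uhrf1 KO they ended at +1118, +881 and +1096 bp. Those of Hist1h1a and Hist1h1e ended at +527 and +437 bp in WT and at +235 and +399 bp in Uhrf1 KO. Some members of other types also had distant peaks, such as Hist1h4m at +1648 bp and Hist2h2aa2 at +1626 bp in WT. The median distance was +411 bp for 23 WT peaks and +376 bp for 29 KO peaks assigned to H1 genes. Of the 6 H1 genes, 3 had more KO than WT peaks, 3 had equal numbers and 0 had more WT peaks. Over all 67 members, 26 had more WT peaks (38.8%), 24 equal numbers and 17 more KO peaks (25.4%). For the 12767 protein_coding genes with peaks in both lists these shares were 46.7%, 33.6% and 19.7%. With 6 genes and 1 library per genotype, the H1 counts are a description.

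Hist1h1t encodes the linker histone of male germ cells, and Hist1h2aa and Hist1h2ba the H2A and H2B found in testis. All had peaks in these ESCs. Hist1h1t had 1 peak in each library, at +302 bp in WT and +293 bp in Uhrf1 KO, the fewest of the H1 genes. The number in the name of this peak, as a share of the chromosome's highest, was 27.7% in WT and 64.7% in Uhrf1 KO, which exceeded those of the other H1 genes in both libraries. Hist1h2aa had WT peaks at +202, +278 and +330 bp and KO peaks at +193 and +335 bp. Hist1h2ba starts 305 bp away on the other strand, and no peak in either library was closer to its start than to that of Hist1h2aa. The peak nearest to the Hist1h2ba start was at -508 bp in WT and at -499 bp in Uhrf1 KO.

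H2A and H2B dimerize before they enter the nucleosome, and their genes often stand head to head, so that a short stretch of DNA serves as promoter for both. A total of 12 such pairs, with 24 members, had starts 167 to 305 bp apart (median 227.5 bp). A peak overlapped this gap by 1 base or more in 8 pairs in WT and 10 in Uhrf1 KO, and the 8 WT pairs were all among the 10. By the middle of the peak, the numbers were 6 pairs in WT and 10 in Uhrf1 KO, and the 6 were again among the 10. Hist1h2ae/Hist1h2bg and Hist1h2bf/Hist1h2ad had a peak in the gap in Uhrf1 KO only by either measure, and Hist1h2bq/Hist1h2ao and Hist1h2ac/Hist1h2bc by the middle of the peak alone. In WT the peaks nearest to Hist1h2ae, Hist1h2bg and Hist1h2bf lay inside the genes, at +183 bp of Hist1h2ae, +54 bp of Hist1h2bg and +86 bp of Hist1h2bf. The central 31 bp of the last occur at 11 places of the genome. Gaps between head-to-head genes other than members were not counted, so the pair numbers have no background. Over all protein_coding starts, 54.2% of WT and 60.2% of KO peaks lay before the start. Hist2h2ac/Hist2h2be and Hist1h2ba/Hist1h2aa had no peak in the gap in either list. The closest pairs were Hist1h2bq/Hist1h2ao at chr13:21902069-21902235 and Hist1h2ap/Hist1h2br at chr13:21925445-21925611, 167 bp each. Their gaps are shown because they are the same sequence at both places, with 0 differences, when read towards the H2A gene (plus strand for the first, minus strand for the second). CCAAT and its reverse complement ATTGG, the core of the site bound by NF-Y, are in capitals.
Hist1h2bq/Hist1h2ao gap: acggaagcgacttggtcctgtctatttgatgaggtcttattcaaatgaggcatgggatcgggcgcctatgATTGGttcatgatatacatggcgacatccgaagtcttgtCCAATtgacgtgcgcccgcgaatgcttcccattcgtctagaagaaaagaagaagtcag
Hist1h2ap/Hist1h2br gap: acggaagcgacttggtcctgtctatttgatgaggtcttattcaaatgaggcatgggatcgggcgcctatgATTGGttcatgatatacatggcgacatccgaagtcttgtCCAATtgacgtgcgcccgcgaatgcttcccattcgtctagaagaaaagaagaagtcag

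The gap of Hist1h2bq/Hist1h2ao was overlapped by 2 WT and 3 KO peaks, and that of Hist1h2ap/Hist1h2br by 1 WT and 2 KO peaks. Of these, 0 WT and 1 KO peak had their middle in the first gap, and 1 WT and 1 KO peak in the second. None of the 31 bp windows around the starts of these 4 genes occurs only once in the genome. The authors kept 1 alignment per read, so the copy from which a read came cannot be told apart, and these counts describe the pairs together. Hist1h2ap had 7 WT and 8 KO peaks within 2 kb and Hist1h2br had 6 and 7. Summed over both libraries, these were the most of any H2A and of any H2B gene. Hist1h4m and Hist1h4n, the H4 gene beside each pair, had 7 WT and 8 KO peaks each, the highest sum of any H4 gene.

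Among the types, H2B genes showed the widest difference between the libraries in the share of peaks before the start. The median distance of a peak from the nearest H2B start was +85 bp over 41 WT peaks and -23 bp over 30 KO peaks. In WT 9 of the 41 peaks (22.0%, interval 10.6 to 37.6) lay before the start, and in Uhrf1 KO 16 of 30 (53.3%, 34.3 to 71.7). Over all protein_coding starts the shares were 54.2% in WT and 60.2% in Uhrf1 KO. The intervals treat peaks of the same gene as independent, and Hist1h2bm alone gave 7 of the 41 WT peaks. Hist1h2bm is the clearest case. Its WT peaks lay at -249, +14, +68, +131, +202, +257 and +392 bp, and its KO peaks at -246, -162, -99 and -14 bp. Hist1h2bc had WT peaks at +35, +118 and +172 bp and a KO peak at -50 bp. Hist1h2bf had WT peaks at +86 and +172 bp and a KO peak at -73 bp. Several of these WT peaks cannot be placed firmly, since their central 31 bp occur at 2 to 13 places of the genome. They are those at +131 and +257 bp of Hist1h2bm, +118 and +172 bp of Hist1h2bc and +86 and +172 bp of Hist1h2bf. The centres of the KO peaks of these genes occur once. Not all H2B genes followed, and at Hist1h2bg the peaks lay at +54 bp in WT and +58 bp in Uhrf1 KO. At Hist1h2bj the median peak lay at +36 bp in WT and +81.5 bp in Uhrf1 KO. Of 15 H2B genes with peaks of their own in both lists, the median WT peak lay further downstream at 10 and the median KO peak at 5. The median difference over these genes was 32 bp. In 11870 protein_coding genes other than members with peaks in both lists, the median WT peak lay further downstream at 55.6%. The median difference there was 7 bp. H2A genes showed no such split, with 10 of 35 WT peaks (28.6%) and 10 of 33 KO peaks (30.3%) before the start.

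H3 and H4 genes encode the histones of the central tetramer. The 11 H3 members had 16 assigned WT peaks at a median of +166.5 bp and 18 KO peaks at +22.5 bp. Hist1h3i had WT peaks at +227 and +306 bp and KO peaks at -681 and +25 bp, none of which had a counterpart in the other list. The central 31 bp of the WT peak at +227 bp occur at 12 places of the genome. Hist1h3a had a WT peak at +325 bp and a KO peak at 0 bp. Within 2 kb of Hist1h3a there were 8 WT and 6 KO peaks, the highest sum of any H3 gene, but only 1 of them in each library was closer to Hist1h3a than to another member. At Hist1h3h the peaks lay at +22 bp in WT and +34 bp in Uhrf1 KO. Hist1h3f had a WT peak at +476 bp and KO peaks at +354 and +443 bp. Its annotated transcript starts 433 bp before the start codon, and measured from that codon the peaks lay at +43 bp in WT and at -79 and +10 bp in Uhrf1 KO.

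The 13 H4 members had 41 WT and 36 KO peaks at medians of +204 and +193 bp. Hist1h4i had WT peaks at +99, +310 and +425 bp and KO peaks at -94, -14 and +334 bp. Hist1h4b, by contrast, had no peak near its start. Its peaks lay at +384 and +511 bp in WT and at +383 and +535 bp in Uhrf1 KO, and the second of each was centred past the end of this gene of 491 bp. Hist2h4 and Hist4h4 are described with their clusters.

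**Figure D2:**
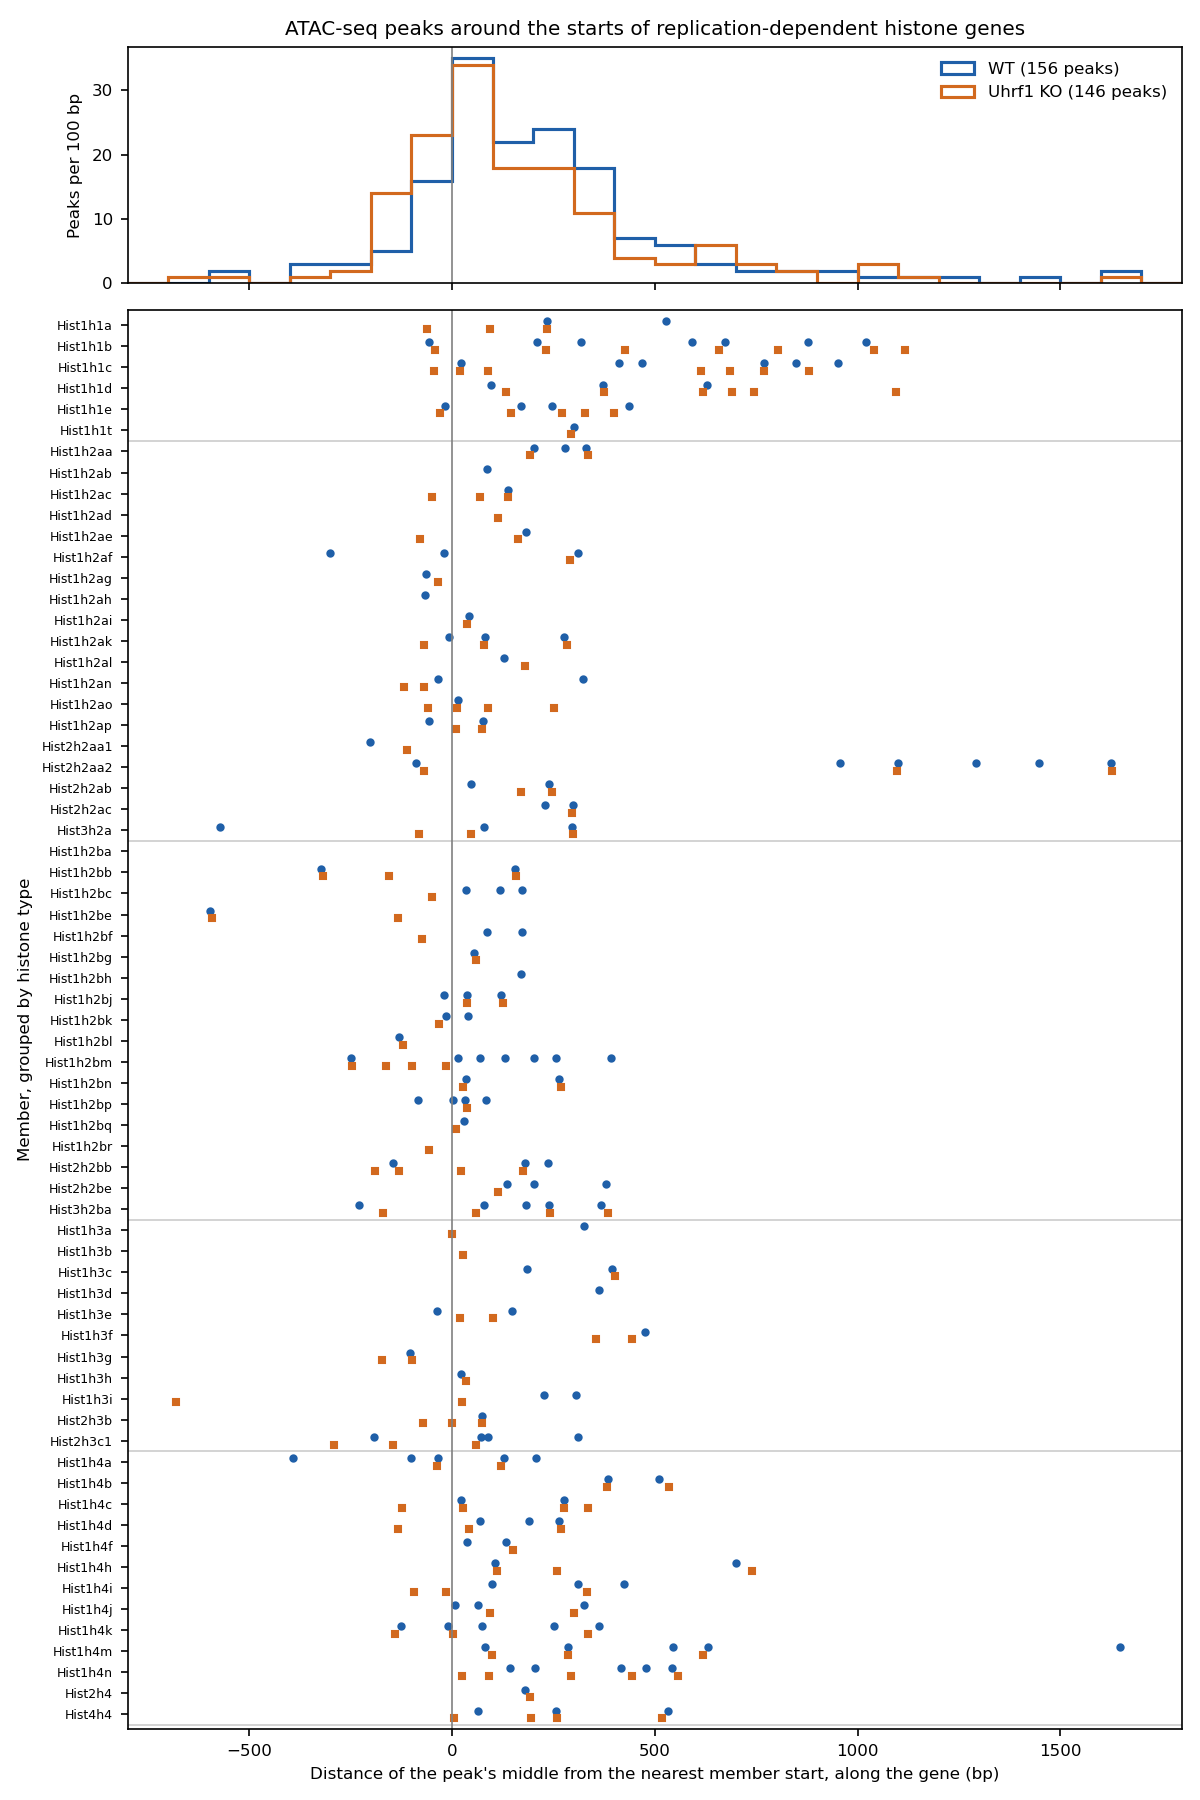
Distance in bp from the nearest member start to the middle of each peak, positive along the gene, for WT (circles) and Uhrf1 KO (squares), as the number of peaks per 100 bp (top) and for each member grouped by histone type (bottom). Peaks gather from shortly before the start to about 500 bp inside, and the rows of Hist1h1b and, in Uhrf1 KO, of Hist1h1d reach past 1000 bp.

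Over all types, peaks lay mostly inside these short genes. The median distance was +171 bp for 156 WT peaks and +92 bp for 146 KO peaks, and 85.3% and 85.6% lay within 500 bp of a start. In WT 18.6% (interval 12.8 to 25.6) of the peaks lay before the start and in Uhrf1 KO 28.8% (21.6 to 36.8). Peaks at all protein_coding starts were placed differently, with 54.2% of 36340 WT peaks and 60.2% of 27670 KO peaks before the start and medians of -11 and -29 bp. The shift between the libraries had the same direction there as in the histone genes. Gene by gene, the median WT peak lay further downstream than the median KO peak in 34 of 59 members with peaks of their own in both lists (57.6%), close to the 55.6% of 11870 other genes.

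The Hist2 members had more WT than KO peaks in 6 of 9 genes, beside 46.7% of protein_coding genes with peaks in both lists. Several of these genes count the same peaks, so they are not separate cases. Hist2h2ab, Hist2h2ac and Hist2h2be stand within a few kb of each other and shared the same 7 WT and 4 KO peaks. Hist2h2aa2 had 6 and 3, and Hist2h2aa1 and Hist2h3c1 shared the same 5 and 4. The order was the other way at Hist2h3b and Hist2h2bb, which shared the same 4 WT and 7 KO peaks. Hist2h4 had 1 peak in each library, at +180 bp in WT and +192 bp in Uhrf1 KO. The number in the name of this peak was 76 in WT, or 1.89% of the chromosome's highest, and 43 in Uhrf1 KO, or 1.17%. This was the lowest share of all members in Uhrf1 KO, and in WT only Hist4h4, with 48 or 1.26%, was lower. On chromosome 11, Hist3h2ba had 5 WT and 4 KO peaks and Hist3h2a had 3 and 3. Hist4h4 had WT peaks at +64, +256 and +532 bp and KO peaks at +5, +194, +258 and +519 bp. Hist1h2al, which lies apart from the Hist1 runs, had 1 peak in each library, at +128 bp in WT and +181 bp in Uhrf1 KO, with the highest relative numbers of all members (76.7% and 66.4%).

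The 6 places, each widened by 10 kb at both ends, held 199 WT peaks (172 to 229 by the 95% exact Poisson interval) against 182 KO peaks (157 to 210). KO peaks thus made up 47.8% of both lists there (interval 42.7 to 52.9), and 46.2% over the whole genome. The first Hist1 run held 94 WT and 72 KO peaks, a KO share of 43.4% (35.7 to 51.3). The second Hist1 run held 63 and 68 peaks, a KO share of 51.9% (43.0 to 60.7). Hist2 held 24 and 20, Hist3 12 and 12, Hist4 5 and 9, and Hist1h2al 1 and 1. All these intervals include the share of the whole lists. The first Hist1 run had 27.0 WT peaks per 100 kb, compared with 2.50 over chromosome 13, and Hist2 had 30.3, compared with 2.45 over chromosome 3. Of the cluster peaks, 156 (78.4%) in WT and 146 (80.2%) in Uhrf1 KO lay within 2 kb of a member start. In the first Hist1 run 32 WT and 20 KO peaks lay elsewhere, and 29 and 15 of them were in the 197.6 kb without members between Hist1h2br and Hist1h2ah. Of the 32 and 20 peaks, 11 and 5 were at starts of other genes.

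**Figure D3:**
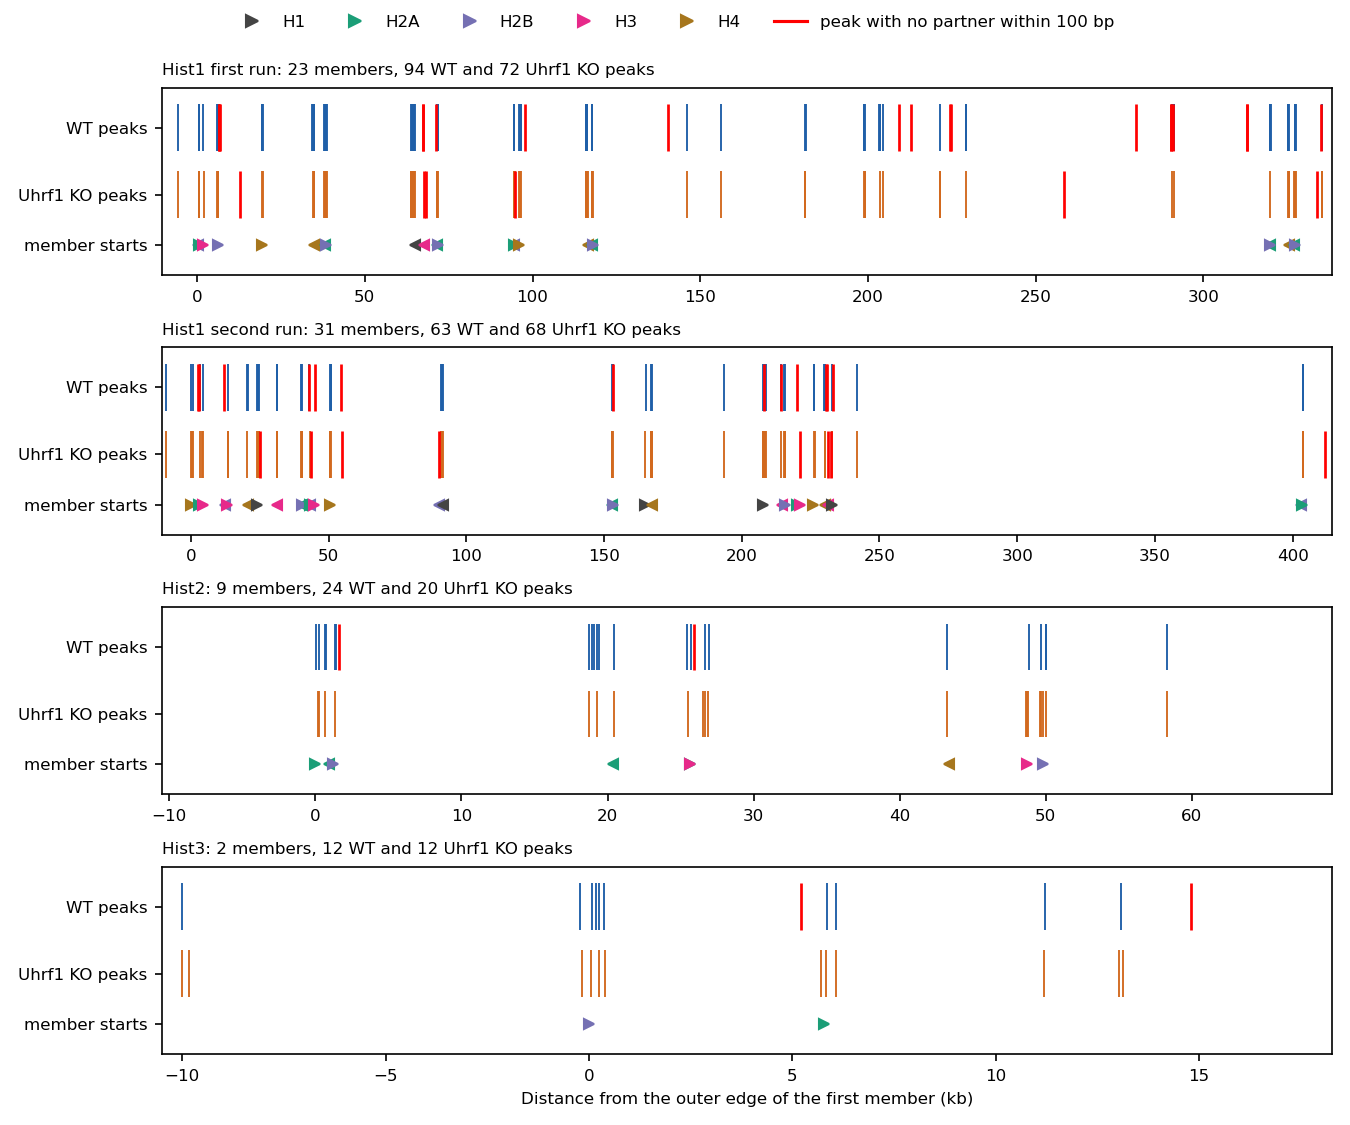
Maps of the 4 places with more than 1 member: peaks of WT (top row) and Uhrf1 KO (middle row) and member starts (arrowheads, pointing along the gene, coloured by histone type), against the distance in kb from the outer edge of the first member. Red lines are peaks without a counterpart within 100 bp in the other list, 36 of 199 in WT and 14 of 182 in Uhrf1 KO over all 6 places.

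Most peaks of the clusters were found in both libraries. Of the 199 WT peaks, 36 had no KO peak within 100 bp (18.1%, interval 13.0 to 24.2), and of the 182 KO peaks, 14 had no WT peak (7.69%, 4.27 to 12.6). Over the whole lists these shares were 32.1% and 24.6%. For peaks at member starts they were 14.1% of 156 in WT (9.05 to 20.6) and 6.16% of 146 in Uhrf1 KO (2.86 to 11.4). The like-for-like values at the starts of all other protein_coding genes were 25.7% of 36334 WT peaks and 8.97% of 27664 KO peaks. The WT interval of the members lay below the value of other starts, and the KO interval included it. These intervals treat adjoining peaks as independent, so this is a description and the difference from other starts was not tested. Without peaks of 2 or more copies, the share of all cluster peaks rose to 24.4% in WT and 13.7% in Uhrf1 KO. That setting took such peaks out of both lists, so a remaining peak can lose its counterpart through the filter itself. In Uhrf1 KO the number without a counterpart went from 14 of 182 to 18 of 131 peaks. Counterparts were displaced by a median of 23 bp in WT and 24 bp in Uhrf1 KO at the members, and by 19 and 17 bp over the whole lists. Of the 22 WT peaks at members without a counterpart, 17 were centred more than 100 bp past the nearest member start, 16 of them over a member gene, and of the 9 such KO peaks 3 were, all over a member gene. Many peaks with a counterpart lay there too, 75 of 134 in WT and 67 of 137 in Uhrf1 KO.

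Near-identical copies limit how firmly a peak can be given to 1 gene. The central 31 bp of 62 WT peaks (39.7%) and 47 KO peaks (32.2%) at members occurred at 2 or more places of the genome, up to 20 times, compared with 8.08% and 10.9% over the whole lists. Around the starts, the median member had 69.2% of 31 bp windows that occur once, while the median over all protein_coding genes was 100%. H1 genes were the most distinct, with a median of 93.5%, and Hist1h1a, Hist1h1b and Hist1h1t had 100%. At the other end, Hist1h2bq, Hist1h2ao, Hist1h2ap and Hist1h2br had 0%, Hist1h4m 6.58%, Hist1h4n 4.67%, and Hist2h2aa1, Hist2h2aa2 and Hist2h3c1 6.58% each. When peaks with repeated centres were left out, 57 members still had a WT peak and 58 a KO peak. Hist1h2ao, Hist1h2bq, Hist2h2aa1, Hist2h2aa2 and Hist2h3c1 then had none in either library.

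The lists give no height, but peak names carry a closing number, counted anew on every chromosome. What the number stands for is not given in the sources used here, so it is reported as a position in the list. For the lowest-numbered peak of each member, the number as a share of the chromosome's highest had a median of 17.0% in WT and 16.0% in Uhrf1 KO. For all protein_coding genes with a peak the medians were 18.6% and 22.7%. A total of 50 members in WT (74.6%) and 52 in Uhrf1 KO (77.6%) were under 25%, compared with 61.4% and 53.3% of all genes with a peak. By type, H1 genes had the highest medians, 19.7% in WT and 25.3% in Uhrf1 KO. A low value can also come from having several peaks to choose from, and members share their lowest-numbered peak with neighbours.

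**Figure D4:**
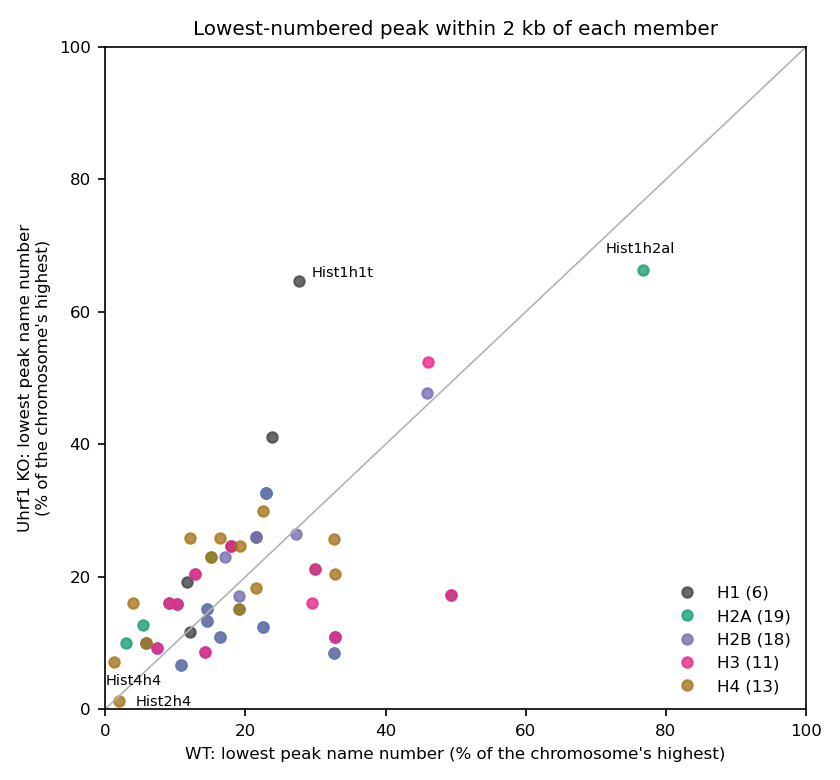
Number of the lowest-numbered peak within 2 kb of each member, in percent of the highest number of its chromosome, in WT (horizontal axis) and Uhrf1 KO (vertical axis), coloured by histone type; members that share a peak overlap. 50 of the 67 points sit under 25% on the WT axis and 52 on the Uhrf1 KO axis, with Hist2h4 lowest in Uhrf1 KO and Hist1h2al (76.7% and 66.4%) furthest out.

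The promoters carried elements that differ between histone types. They were searched on both strands from 250 bp before to 50 bp after the outermost start. The octamer ATTTGCAT, the element of H2B promoters that Oct-1 binds, was present at 8 of 18 H2B and 7 of 19 H2A starts, many of which share a promoter, and at 0 of the H1, H3 and H4 starts, compared with 1.72% of all protein_coding starts. The core of H4 site II, GGTCCG, where the H4 gene activator Hinfp binds, was at 12 of 13 H4 starts and at 9.77% of all starts. The AC box AAACACA of H1 promoters was at 5 of 6 H1 starts and at 6.43% of all starts. CCAAT was at 57 of 67 members (37.9% of all starts), that is at all H1, H2A and H2B starts, at 10 of 11 H3 and at 4 of 13 H4 starts. The TATA sequence TATAAA was at 38 of 67 members (13.4% of all starts). These elements were known for these genes, and a match is a description of letters and not evidence of binding.

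The 250 bp before the start are shown for the H1, H2A, H2B and H3 member with the lowest peak number of its type, so that the elements can be seen next to the peaks given for these genes. Capitals mark the matches, and positions count back from the start. Hist1h1c (chr13:23830426-23830675, plus strand) has the AC box at -112 and CCAAT at -54, and its first WT peak was centred at +23 bp and its KO peaks at -45 and +19 bp. Hist3h2a (chr11:58767937-58768186, plus) has the octamer at -119 and CCAAT at -68 and, on the other strand, at -86. Hist1h2bg (chr13:23663015-23663264, plus) has CCAAT at -146 and, on the other strand, at -174, the octamer at -55 and TATAAA at -39. Hist1h3f (chr13:23635671-23635920, plus) has none of these elements there, and its peaks lay near the start codon as described above.
Hist1h1c: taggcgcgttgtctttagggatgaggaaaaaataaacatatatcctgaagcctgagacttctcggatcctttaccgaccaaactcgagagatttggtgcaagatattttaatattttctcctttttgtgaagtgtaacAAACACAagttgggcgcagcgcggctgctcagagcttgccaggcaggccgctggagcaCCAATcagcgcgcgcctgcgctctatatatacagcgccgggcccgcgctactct
Hist3h2a: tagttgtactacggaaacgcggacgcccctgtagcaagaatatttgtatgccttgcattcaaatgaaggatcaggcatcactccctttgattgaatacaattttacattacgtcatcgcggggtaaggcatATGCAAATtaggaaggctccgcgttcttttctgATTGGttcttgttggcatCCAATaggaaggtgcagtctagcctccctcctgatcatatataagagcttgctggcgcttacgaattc
Hist1h2bg: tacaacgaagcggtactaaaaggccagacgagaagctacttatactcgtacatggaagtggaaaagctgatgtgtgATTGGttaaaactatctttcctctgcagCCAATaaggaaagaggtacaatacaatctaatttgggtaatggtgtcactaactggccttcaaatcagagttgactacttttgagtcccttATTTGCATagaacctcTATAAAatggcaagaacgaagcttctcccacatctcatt
Hist1h3f: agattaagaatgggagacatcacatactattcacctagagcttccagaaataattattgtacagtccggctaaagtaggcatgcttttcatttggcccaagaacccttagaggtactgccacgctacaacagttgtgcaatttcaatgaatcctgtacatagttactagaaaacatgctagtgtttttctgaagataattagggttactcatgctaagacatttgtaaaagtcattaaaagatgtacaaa

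**Figure D5:**
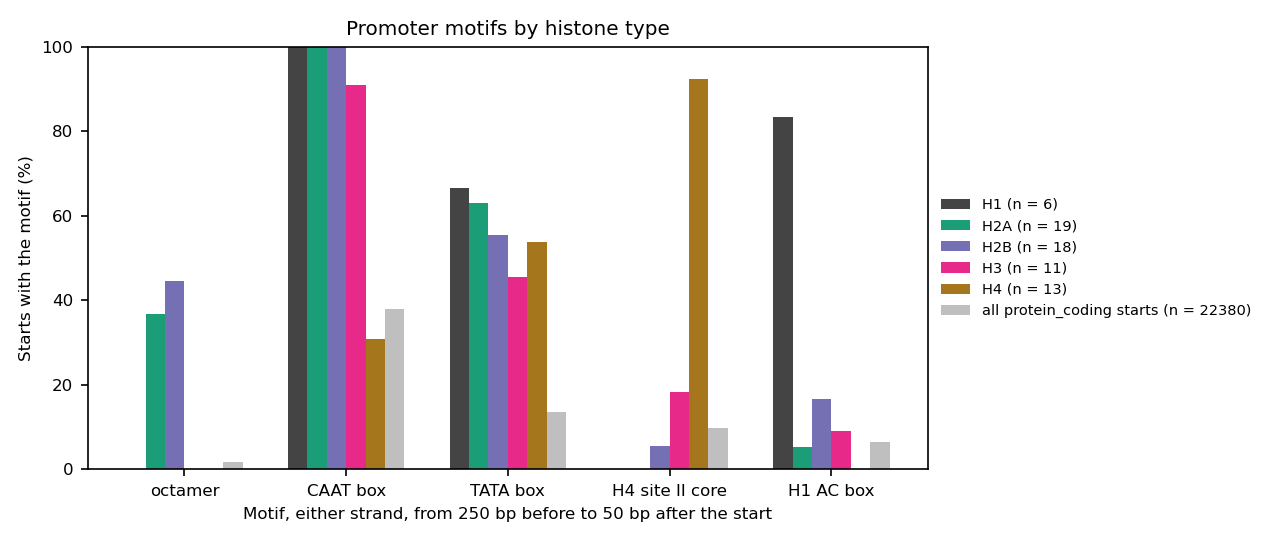
Share of starts (%) with each promoter element on either strand, from 250 bp before to 50 bp after the start, for the 5 histone types and for all 22380 protein_coding genes (grey). The octamer is seen at H2A and H2B genes, the H4 site II core at 92.3% of H4 genes and the AC box at 83.3% of H1 genes.

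Genes that act on histone genes or their mRNAs were accessible as well. All 21 listed regulators had a WT peak and 20 a KO peak. The shares were 63.7% and 58.8% over all protein_coding genes, and 94.9% and 88.0% at starts with at least 60% GC. The regulators are near the latter class, with a median GC content of 66% around the start. Npat, which drives histone transcription in S phase from the histone locus body, had 3 WT and 2 KO peaks, and Casp8ap2, a further part of that body, had 2 and 2. Slbp, which binds the stem-loop, had 2 WT and 5 KO peaks, and Lsm11 of the U7 particle that cuts the mRNA end had 6 and 3. Hinfp had 3 and 2, and Pou2f1, which encodes Oct-1, had 7 and 5. Eri1, an exonuclease that trims the stem-loop end, had 2 WT peaks and no KO peak, the only regulator with a peak in 1 library only, where 6.66% of all genes had a peak in WT only. The chaperone gene Asf1b had 4 WT and 6 KO peaks, and Chaf1b of the CAF-1 complex had 7 and 2.

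Of 13 listed histone genes grouped here as replication-independent, 11 were found in the annotation, and 10 had a WT peak and 9 a KO peak. Over all protein_coding genes the shares were 63.7% and 58.8%. H2afx is in this group although it carries the stem-loop form shown above. H2afz (H2A.Z) had 4 peaks in each library, H3f3a and H3f3b (H3.3) had 4 and 8 in WT and 4 and 5 in Uhrf1 KO, and H2afx had 4 and 3. Cenpa, the centromeric H3, had 1 WT peak and no KO peak, and the oocyte linker histone H1foo had none. H2afj lies beside Hist4h4 on chromosome 6 and had 2 WT and 5 KO peaks, which are part of the 5 and 9 peaks counted around Hist4h4.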

How the data were processed

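ATAC-seq peak lists of 1 WT and 1 Uhrf1 KO E14 ESC library were used. Reads had been aligned by the authors to mm9 (Bowtie2 2.1.0, local alignment, 1 reported hit per read), and fragments below 150 bp were used. HOMER 4.9.1 is named in the submitters' processing notes without a role, and the peak caller, threshold and any Tn5 shift are not given in the sources used here. The deposited score is 1 for every peak and carries no information, and the other deposited values are positions and names.

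Peaks and starts of GENCODE vM1 (same build) were joined in Python 3.11.15 using pandas 2.3.3, numpy 2.4.6 and, for intervals, scipy 1.17.1. Any peak counted for a gene when 1 base or more lay within 2 kb of a transcript start, and peaks with a gap of at most 100 bp were counterparts. For distances, each peak was given to the nearest member start. Members within 250 kb formed a place, with 10 kb added on either side. Copies of 31 bp windows were counted on both strands with numba 0.67.0, and sequences were read from NCBIM37 with pysam 0.24.0 and samtools 1.23.1. The stem-loop was searched within 200 bp of the gene end or stop codon. Figures were drawn with matplotlib 3.10.9. Intervals are 95% exact binomial or Poisson intervals for counting error alone, and adjoining peaks depend on each other. No test between genotypes was made. The routines were checked on simulated regions.

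The members, gene lists and motifs were chosen with earlier results of these data known. Named genes are members that lack a peak in any window used, the Hist2, Hist3 and Hist4 members, the testis genes, the members of each type with the most peaks and with the lowest peak number among peaks nearest to them, and the closest divergent pairs. Other genes given as examples of peak positions were chosen after their values were seen. H1f0 and H3f3c did not match a gene name. A further promoter sequence is not reported here. Other experiments of the study were not analysed here.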

Additional observations from a re-analysis of the deposited data

How the results depend on the processing

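No paired analysis was possible because the data hold 1 library of WT and 1 of Uhrf1 KO, and no test was made. The peak numbers of single members have no error of their own, and the lists hold no read depth. Of 55 alternative values, 38 stayed close to the reported ones and 17 moved. Whether an order between the libraries reversed was not scored. Between 57 and 67 members kept a WT peak and between 58 and 67 a KO peak. Members with a peak in WT only rose from 0 to 2 with a window of 1 kb, 3 with 500 bp, 4 when a peak counted only for the nearest member and 4 without peaks of 2 or more copies. Members with a peak in KO only rose from 0 to 1, 2, 3 and 5 under the same settings. The shares over all protein_coding genes were not computed under these settings, so the counts cannot be set beside a background. Merging neighbouring peaks lowered the sum over the clusters to 123 in WT and 108 in Uhrf1 KO, since several peaks then become 1. The share of cluster peaks without a counterpart was 25.1% in WT and 20.3% in Uhrf1 KO when 1 shared base was required, and 42.7% and 37.4% when 50% of both peaks had to be shared. Without peaks of 2 or more copies in either list it was 24.4% and 13.7%, a setting that can also remove a peak's counterpart. The WT share exceeded the KO share under each of these settings and with lists of equal length (17.7% and 9.34%), a setting chosen after seeing the data. From 250 bp before to 50 bp after the start, the median GC content of the members was 46.0% in place of 53.6%, because this window leaves out most of the coding sequence. The share of peaks before the start, recomputed in 3 ways chosen after seeing the data, covered 18.3 to 24.5% for WT and 28.8 to 36.4% for KO peaks.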

Other observations

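The numbers in the peak names rose with position only in short runs. On chromosome 13, the 3010 WT peaks fell, in the order of their numbers, into 107 runs of rising position with a median of 7 peaks, and the last run held 291 peaks. The 2666 KO peaks fell into 94 runs, of which the last held 281 peaks. The other chromosomes with members behaved alike, with 109 to 118 runs in WT and 92 to 109 in Uhrf1 KO.

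The gene 1700014N06Rik on chromosome X, the other gene outside the members with the stem-loop form, carried the same 16 bases as 39 of the members and had 0 peaks in either library. Measured from the start codon instead of the annotated start, 64 of 66 members with an annotated start codon had a WT peak within 500 bp and 63 a KO peak. Hist1h3b and Hist1h2ba lacked it in WT, and Hist1h2bh, Hist1h3d and Hist1h2ab in Uhrf1 KO.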
